A study of Homo sapiens
Mus musculus and Mus musculus and Homo sapiens with 16 samples.

Results

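Integrins are the receptors by which lymphoma cells can hold on to stroma, and their chains and ligands were measured here on both sides of a coculture. The members were chosen by name: the human genes ITGA4, ITGB1, ITGB7, ITGAL, ITGB2 and ICAM1 in REC-1 cells, and the mouse genes Vcam1, Fn1, Icam1 and Spp1 in MS-5 cells. They make 10 of the 107722 genes counted (6 of 58051 human and 4 of 49671 mouse genes). REC-1 is an established human mantle cell lymphoma (MCL) line and MS-5 an established mouse stromal line. Each group held 4 RNA-seq libraries. Sep denotes REC-1 cells grown alone, Susp the REC-1 cells that stayed in suspension above MS-5, Adh the REC-1 cells that had adhered together with the MS-5 cells under them, and the last group was MS-5 alone. RNA was taken after 24 h, and cocultures combined 5e+05 MS-5 cells with 5e+06 REC-1 cells. The labels name no drug, gene edit or other treatment in any group. Adh libraries therefore held RNA of both species and gave both human and mouse counts. One lymphoma line on stroma of another species limits the model, since a mouse ligand faces a human receptor. The study describes its replicates as independent experiments, while the labels do not say how the libraries of a group were cultured, and p-values measure the spread between these libraries.

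Each integrin is a pair of 1 alpha and 1 beta chain. ITGA4 with ITGB1 forms VLA-4, and ITGA4 with ITGB7 forms α4β7, while ITGAL with ITGB2 forms LFA-1, the main integrin of lymphocyte contacts. VLA-4 binds VCAM-1 and the alternatively spliced connecting segment of fibronectin, osteopontin (Spp1) is bound by VLA-4 and by several integrins that read an Arg-Gly-Asp site, and ICAM-1 is the ligand of LFA-1. Chemokine and B-cell receptor signals act on integrins largely by changing the shape of the protein that is already on the surface, a step that transcript counts do not measure.

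The stretches of coding sequence at the centre of these contacts are shown because the stromal ligands and their receptors come from different species. They were read from GENCODE transcripts, release 44 on GRCh38 for human and release M21 on GRCm38 for mouse, 5′ to 3′ in the coding sense and each within 1 exon. In the ligands the capitals mark the 3 codons of the integrin site, Arg-Gly-Asp in osteopontin and in the cell-binding repeat of fibronectin, Leu-Asp-Val in the spliced segment of fibronectin and Ile-Asp-Ser in VCAM-1.
Mouse Spp1, exon 5 of 6, chr5:104439457-104439519, plus strand: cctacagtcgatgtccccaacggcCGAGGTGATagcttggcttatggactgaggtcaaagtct
Human SPP1, exon 6 of 7, chr4:87981709-87981771, plus strand: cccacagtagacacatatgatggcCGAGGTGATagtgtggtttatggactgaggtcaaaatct
Mouse Fn1, Arg-Gly-Asp site, exon 30 of 46, chr1:71606719-71606781, minus strand: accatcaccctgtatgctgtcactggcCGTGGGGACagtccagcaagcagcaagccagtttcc
Mouse Fn1, Leu-Asp-Val site, exon 40 of 46, chr1:71597659-71597715, minus strand: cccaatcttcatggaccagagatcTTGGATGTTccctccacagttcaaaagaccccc
Mouse Vcam1, exon 2 of 9, chr3:116128654-116128710, minus strand: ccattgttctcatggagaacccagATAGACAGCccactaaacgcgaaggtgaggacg
The mouse and human osteopontin stretches matched at 48 of 63 bases and at all 9 capital bases. The Leu-Asp-Val stretch of Fn1 was in 3 of the annotated coding transcripts and the Arg-Gly-Asp stretch in 7. Gene counts do not separate these transcripts.

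In the beta chains the capitals mark 5 codons of the metal ion site that takes hold of the acidic residue of a ligand.
ITGB1, exon 5 of 16, chr10:32928155-32928217, minus strand: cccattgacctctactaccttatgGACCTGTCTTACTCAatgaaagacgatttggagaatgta
ITGB7, exon 5 of 16, chr12:53197554-53197616, minus strand: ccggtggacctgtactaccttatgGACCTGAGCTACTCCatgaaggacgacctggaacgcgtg
ITGB2, exon 5 of 16, chr21:44903426-44903488, minus strand: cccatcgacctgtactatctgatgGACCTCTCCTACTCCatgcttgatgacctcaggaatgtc
ITGB1 and ITGB7 encoded the same residue at 19 of these 21 codons and shared 47 of 63 bases. ITGB1 and ITGB2 also encoded the same residue at 19 of 21 codons, and ITGB7 and ITGB2 at 17 of 21.

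Human counts per library ranged from 7758979 to 21467832, and mouse counts from 10097555 to 34615602. The study describes its counts as fragments. The ITGB2 counts were all even, while ITGAL had some odd ones, so a count may be a single read of a pair. This was not tested. Levels are given as CPM (counts per 1e+06 counts of the species, with libraries scaled by edgeR's TMM factors), and levels of different genes were compared only per length, as RPKM (CPM per kilobase of the principal coding transcript). Susp replicate 2 stood furthest from its group, with a mean correlation of 0.957 to the other Susp libraries over 8482 genes against 0.977 to 0.989 for the other 11 REC-1 libraries. Results that rest on it are therefore given with and without it. All 8 B-cell and MCL markers were measured in REC-1 at a summed 5520 to 7230 CPM, while human T-cell markers summed to at most 8.72 CPM, myeloid markers to at most 2.20 CPM and stromal markers to at most 0.513 CPM. In MS-5 the stromal markers summed to 3410 to 4080 CPM, although Thy1 was listed at 0, and mouse endothelial and B-cell markers summed to at most 0.177 and 0.0681 CPM. Mouse macrophage markers summed to 5.02 to 7.91 CPM with Ptprc, Adgre1 and Itgam at 0. Among 50 genes specific to the stroma, human counts in Adh libraries reached at most 0.0612% of the mouse counts of the same symbol. Among 50 genes specific to REC-1, mouse counts reached at most 0.274% of the human counts. These shares measure misassigned fragments for these genes, and the share for other genes was not measured.

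The α4 and β1 chains were the dominant integrin transcripts of REC-1 together with ITGAE, and no tested member was called different between adherent and suspended cells. Of the 6 human members, 5 passed the filter on low counts, and 0 of these 5 were called in any of the comparisons. A call needed a fold change of 1.5 or more and an adjusted p no higher than 0.05 (edgeR quasi-likelihood test, Benjamini-Hochberg adjustment over all 12861 genes). For all tested genes, 0.778% were called between Adh and Susp, 0.731% between Susp and Sep and 2.4% between Adh and Sep. At an unadjusted p under 0.05 stood ITGB7 between Adh and Susp, where 18% of all genes did, ITGA4 between Susp and Sep, where 16.7% did, and no member between Adh and Sep, where 20.2% did. DESeq2 called 0 members as well. These comparisons share libraries, so the values of each are given side by side below.

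ITGA4, the α4 chain, lies at chr2:181457202-181538940 on the plus strand of GRCh38. Its level was 119, 106, 116 and 111 CPM in the 4 Sep libraries, 91.9, 55.9, 92.6 and 105 CPM in Susp and 103, 98.1, 98.0 and 89.3 CPM in Adh. Every Sep library lay above every Susp and every Adh library, while Adh and Susp overlapped. Groups did not overlap for 11.3% of all genes between Susp and Sep and for 15.7% between Adh and Sep. The mean was 113 ± 5.97 CPM in Sep (SD, n = 4), 86.4 ± 21.3 CPM in Susp and 97.0 ± 5.57 CPM in Adh, differences that did not pass the test. The log2 fold change of Susp over Sep was -0.39 (SE 0.141, edgeR adjusted p = 0.2), with a 95% interval of the fold from 0.62 to 0.938. The Susp library at 55.9 CPM was replicate 2, and without it the log2 fold change was -0.24 (SE 0.0784, edgeR adjusted p = 0.195). Adh over Sep gave -0.22 (SE 0.142, edgeR adjusted p = 0.408). Adh over Susp gave 0.17 (SE 0.141, edgeR adjusted p = 0.532), and 0.02 without Susp replicate 2. The interval of the Adh over Susp fold, 0.913 to 1.38, did not reach 1.5. The annotation places 26.4% of the ITGA4 exon bases over exons of CERKL on the other strand, and the library kit does not mark strand. CERKL itself ranged from 15.8 to 23.8 CPM over the 12 libraries. The genes whose log2 CPM followed ITGA4 most closely over the 12 libraries were ZNF217 (Pearson r = 0.985), ZCCHC6 (r = 0.981) and GCC2 (r = 0.98) among 8493 genes, a description that shares the library and its depth with ITGA4 and includes Susp replicate 2.

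ITGB1, the common β1 partner, lies at chr10:32887273-33005792 on the minus strand. It stood at 144, 119, 126 and 129 CPM in Sep, at 129.7, 86.9, 120.3 and 123 CPM in Susp and at 125, 115, 107 and 111 CPM in Adh. All 3 groups overlapped, and the lowest library was again Susp replicate 2. The mean was 129 ± 10.5 CPM in Sep, 115 ± 19.2 CPM in Susp and 115 ± 7.94 CPM in Adh. The log2 fold change of Adh over Susp was -0.01 (SE 0.114, edgeR adjusted p = 0.985), with a fold interval of 0.843 to 1.18, and without Susp replicate 2 it was -0.10 (edgeR adjusted p = 0.525). Susp and Adh both lay 0.17 log2 below Sep on average, with edgeR adjusted p of 0.441 and 0.429. MS-5 carries much Itgb1 of its own, 26672 to 33358 mouse counts in the Adh libraries. At the highest share of 0.0612% given above, this would make up 1.22% to 2.32% of the human ITGB1 counts there. The share for ITGB1 itself was not measured.

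ITGB7, the lymphoid β7 chain that replaces β1 in α4β7, was scarce. It lies at chr12:53191323-53207282 on the minus strand. Its level was 1.97, 3.68, 2.09 and 2.71 CPM in Sep, 3.58, 4.06, 3.19 and 4.03 CPM in Susp and 2.1, 1.54, 2.96 and 1.92 CPM in Adh. All 4 Susp libraries lay above all 4 Adh libraries, as 11.4% of all genes had non-overlapping groups in this comparison, and Sep overlapped both. Adh over Susp gave -0.81 on the log2 scale (SE 0.269, 95% fold interval 0.384 to 0.846), with an unadjusted p of 0.0081 and an edgeR adjusted p of 0.146. It was the largest fold change among the 5 tested members between these groups and did not pass the adjusted threshold. Without Susp replicate 2 the value was -0.75 (edgeR adjusted p = 0.199). Susp over Sep gave 0.50 (SE 0.257, edgeR adjusted p = 0.327) and Adh over Sep -0.31 (SE 0.281, edgeR adjusted p = 0.577). The exons of ITGB7 share 42.3% of their bases with ZNF740 on the other strand, a gene more abundant by far, at 79.7 to 100.0 CPM. ZNF740 means were 86.9 CPM in Adh and 92.9 CPM in Susp. How fragments in exons shared by both genes were counted is not given. The ITGB7 counts could thus hold ZNF740 fragments or lack shared ones, which was not tested. The same holds for the exon overlaps of ITGA4 and ICAM1, and for smaller ones. Mouse Spp1 shared 18.8% of its exon bases with a gene on the same strand. Mouse Icam1 shared 11.7%, ITGAE 7.65% and the remaining members less.

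**Figure D1:**
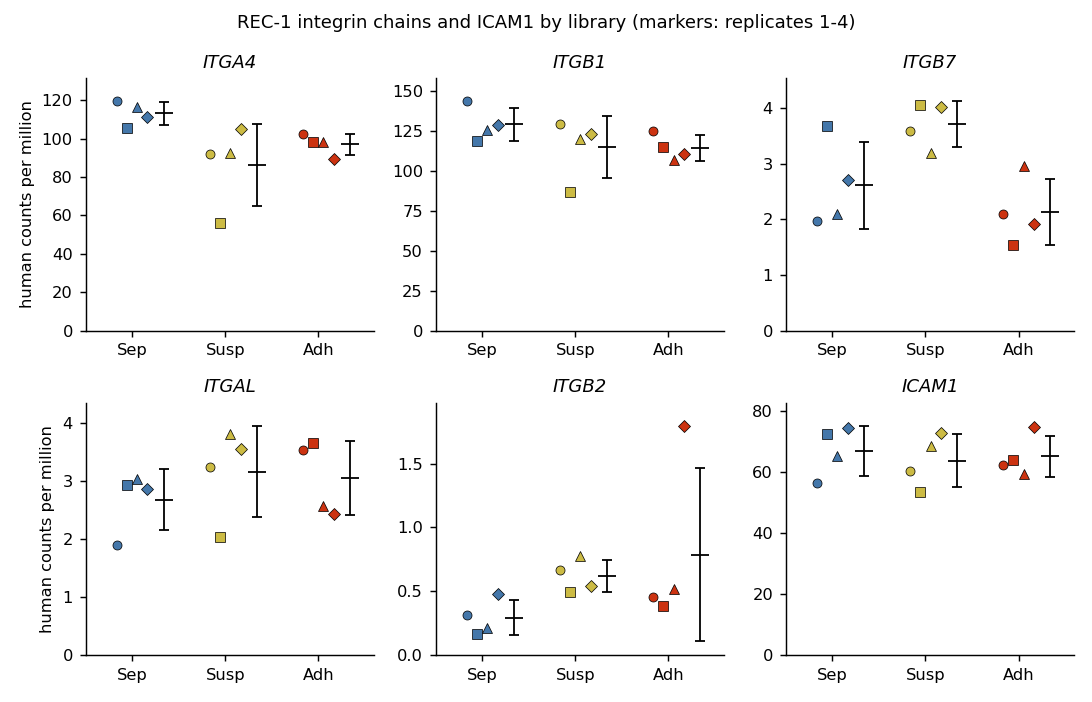
Human CPM (TMM scaled) of the 6 REC-1 members in each library of Sep, Susp and Adh, with marker shapes for replicates 1 to 4 and a bar for the mean and SD (n = 4) beside each group. ITGA4 lies highest in Sep, ITGB7 in Adh lies below all Susp libraries, and ITGB2 is under 2 CPM in every library. Axes start at 0 and differ between panels.

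Per length, the chains of REC-1 could be put in order of transcript level, which does not show which heterodimers formed. ITGB1 was highest with 34.6 ± 2.82 RPKM in Sep, 30.8 ± 5.14 in Susp and 30.7 ± 2.12 in Adh. ITGA4 followed with 16.7 ± 0.881, 12.7 ± 3.13 and 14.3 ± 0.821 RPKM, beside ITGAE, the αE chain that pairs with β7, with 14.4 ± 1.18, 16.1 ± 3.05 and 15.0 ± 1.86 RPKM. ITGA4 and ITGAE did not differ beyond their spread in Susp and Adh. ITGA4 made up 40.9% to 49.9% of the summed RPKM of the 18 alpha chains in the group means, and ITGAE 43% to 51.9%. ITGB1 made up 94% to 96.2% of the 8 beta chains and ITGB7 2.39% to 4.16%. The mean ratio of ITGB7 to ITGB1 was 0.0274 in Sep, 0.0444 in Susp and 0.025 in Adh. The order of ITGA4 and ITGB1 rests on the length used. The mean ratio of ITGA4 to ITGB1 was 0.483 in Sep with principal transcripts of 6.78 and 3.73 kb, and 1.2 with the union of all annotated exons of 10.65 and 14.56 kb. With the union of exons ITGB1 made up 86.6% to 91.1% of the beta chains and ITGB7 5.52% to 9.38%, and the mean ratio of ITGB7 to ITGB1 was 0.0674 in Sep, 0.109 in Susp and 0.0615 in Adh.

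The LFA-1 chains were near the lower limit of these libraries. ITGAL, the αL chain, at chr16:30472658-30523567 on the plus strand, was measured at 1.89, 2.93, 3.03 and 2.87 CPM in Sep, 3.25, 2.03, 3.82 and 3.56 CPM in Susp and 3.53, 3.66, 2.57 and 2.44 CPM in Adh. The groups overlapped in every comparison. The log2 fold change was -0.04 for Adh over Susp (SE 0.262, fold interval 0.663 to 1.43, edgeR adjusted p = 0.947), 0.25 for Susp over Sep (edgeR adjusted p = 0.632) and 0.21 for Adh over Sep (edgeR adjusted p = 0.713). The Adh over Susp interval reached below a 1.5-fold lower level, which these counts do not exclude. Without Susp replicate 2 the value of Adh over Susp was -0.18. Per length ITGAL reached 0.523 RPKM in Sep, 0.617 in Susp and 0.595 in Adh, and ITGA4 was 20.7 to 33.4 times higher in the group means.

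ITGB2, the β2 chain that ITGAL needs to reach the surface, lies at chr21:44885953-44931989 on the minus strand and did not pass the filter on low counts. It was counted 4, 2, 2 and 6 times in Sep, 10, 8, 16 and 8 times in Susp and 6, 4, 4 and 14 times in Adh. As CPM this was 0.315, 0.167, 0.209 and 0.478 in Sep, 0.664, 0.492, 0.773 and 0.537 in Susp and 0.451, 0.385, 0.514 and 1.80 in Adh. All 4 Susp libraries lay above all 4 Sep libraries, where groups did not overlap for 11.3% of tested genes, and Adh overlapped both. Adh replicate 4 lay far above the other 3 Adh libraries. When no filter was applied the log2 fold changes were 1.04 for Susp over Sep (SE 0.7, edgeR adjusted p = 0.529) and 1.32 for Adh over Sep (SE 0.724, edgeR adjusted p = 0.437), and 0.27 for Adh over Susp (edgeR adjusted p = 0.923). The mean of ITGB2 was 0.104 RPKM in Sep, 0.22 in Susp and 0.28 in Adh, below ITGAL in the mean of every group.

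ICAM1, the ligand of LFA-1, was by contrast well expressed by the lymphoma cells themselves. It lies at chr19:10271093-10286615 on the plus strand. Levels were 56.3, 72.3, 65.1 and 74.3 CPM in Sep, 60.3, 53.3, 68.5 and 72.8 CPM in Susp and 62.2, 63.9, 59.5 and 74.7 CPM in Adh. The groups overlapped throughout, with means of 67.0 ± 8.17, 63.7 ± 8.67 and 65.1 ± 6.66 CPM. Adh over Susp gave a log2 fold change of 0.03 with SE 0.118 (95% fold interval 0.858 to 1.21, edgeR adjusted p = 0.912), and -0.03 without Susp replicate 2. The interval of Susp over Sep was 0.8 to 1.13 and that of Adh over Sep 0.815 to 1.16, so that a 1.5-fold change lay outside all 3 intervals. Per length ICAM1 stood at 21.5 to 22.6 RPKM in the group means, between the levels of the α4 and β1 chains. This place rests on the length used, since with the union of all exons ICAM1 stood at 18.5 to 19.4 RPKM, above ITGA4 at 8.11 to 10.6 RPKM and ITGB1 at 7.87 to 8.88 RPKM. Antisense RNAs cover 25.4% of its exon bases.

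**Figure D2:**
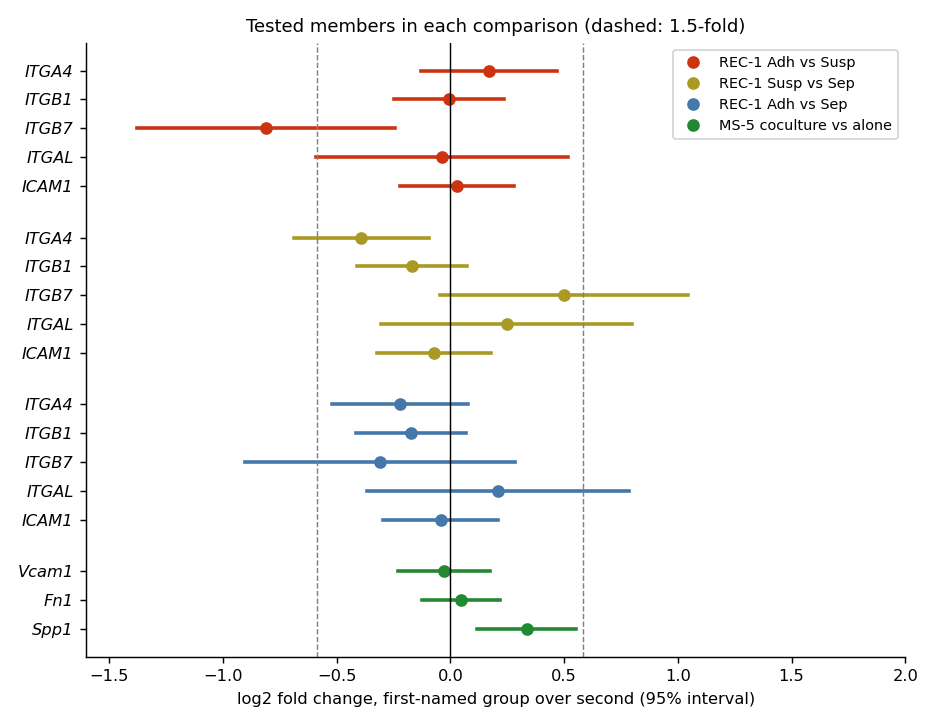
Log2 fold change of each tested member, first-named group over the second, as points with 95% intervals from the edgeR fit, with dashed lines at a fold change of 1.5. Most intervals cross 0. Those of ITGB7 in Adh against Susp and of ITGA4 in Susp against Sep lie below 0. That of Spp1 in MS-5 lies above 0 and below the 1.5-fold line.

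On the stromal side osteopontin was among the most abundant transcripts of MS-5, fibronectin was abundant and VCAM-1 low, while mouse Icam1 was listed at 0. Of the 4 mouse members 3 passed the filter, and 0 of 3 were called between MS-5 under adherent REC-1 cells and MS-5 alone, where 0.205% of 12201 tested genes were called. In the mixed libraries a smaller share of a cell type and less RNA per cell cannot be told apart, and CPM are relative to all mouse counts.

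Spp1 encodes osteopontin, a secreted phosphoprotein, and lies at chr5:104435118-104441050 on the plus strand of GRCm38. Its level was 6969, 4939, 5197 and 5208 CPM in MS-5 alone and 8447, 6301, 6493 and 6914 CPM in the Adh libraries. MS-5 replicate 1 lay above 3 of the Adh libraries, so the groups overlapped, and the other 3 MS-5 libraries lay below all 4 Adh libraries. The mean was 5578 ± 935 CPM alone and 7039 ± 973 CPM in coculture. The log2 fold change was 0.34 (SE 0.102, fold 1.26, 95% interval 1.08 to 1.47), with an unadjusted p of 0.00512 (11.3% of all genes were under 0.05) and an edgeR adjusted p of 0.186. Across the alternatives the adjusted p ran from 4.17e-14 to 0.437 and the log2 fold change from 0.24 to 0.46, all below the 1.5-fold minimum. Within every replicate number the Adh library lay above the MS-5 library. With the replicate number in the model the edgeR adjusted p was far lower, as given at the end. At 3702 RPKM alone and 4671 RPKM in coculture Spp1 ranked 2 of 11119 tested genes with a principal transcript in both groups. The human gene was measured too: SPP1 stood at 62.7 CPM in Sep, in which there was no stroma, at 70.6 CPM in Susp and at 70.9 CPM in Adh. Adh over Susp gave 0.00 log2 for SPP1 (SE 0.108, edgeR adjusted p = 0.986).

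Fn1, fibronectin, a matrix protein bound by β1 and αv integrins, lies at chr1:71585520-71653200 on the minus strand. It was measured at 1324, 1201, 1261 and 1131 CPM in MS-5 alone and at 1339, 1479.6, 1186 and 1077 CPM in coculture. The coculture libraries enclosed the range of MS-5 alone. The log2 fold change was 0.05 (SE 0.0807, fold interval 0.917 to 1.16, edgeR adjusted p = 0.886). Per length Fn1 reached 148 RPKM alone and 153 RPKM in coculture, and Spp1 was 25 and 31 times higher in the mean of the libraries. Human FN1 was counted 29 to 64 times per REC-1 library, 2.40 to 5.91 CPM.

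Vcam1, the endothelial and stromal ligand of VLA-4, lies at chr3:116109949-116129688 on the minus strand. It was measured at 15.6, 15.3, 13.6 and 14.1 CPM in MS-5 alone and at 14.6, 13.6, 14.3 and 15.0 CPM in coculture. The ranges of the groups overlapped. The log2 fold change was -0.03 (SE 0.0946, fold interval 0.854 to 1.13, edgeR adjusted p = 0.955). At 4.23 and 4.14 RPKM, Vcam1 ranked 8292 of 11119 genes in MS-5 alone, and Fn1 was 35.1 and 37.1 times higher per length, or 63.8 and 67.4 times with the union of all exons. Human VCAM1 was listed at 0 in all 12 REC-1 libraries. Glo1 (r = 0.96), Hspa13 (r = 0.943) and Ccdc174 (r = 0.941) followed Vcam1 most closely over the 8 mouse libraries, among 8817 genes.

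Icam1, the mouse counterpart of the LFA-1 ligand, at chr9:21015985-21028817, was listed at 0 in all 8 mouse libraries, while human ICAM1 was counted 463 to 827 times in the Adh libraries. A count of 0 allows up to 3 counts, or 0.0863 to 0.299 CPM in a single library and 0.0163 CPM over all 8. This takes each count as a separate fragment, and the limits would be higher if both reads of a pair were counted. Of the 22050 protein-coding mouse genes, 7433 (33.7%) were listed at 0 throughout. These included Raver1 and Eif4g3, broadly used genes whose human counterparts had 19137 and 24270 counts in the REC-1 libraries, so a listed 0 does not show that a gene was silent. Mouse Itga4 was listed at 0 as well.

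**Figure D3:**
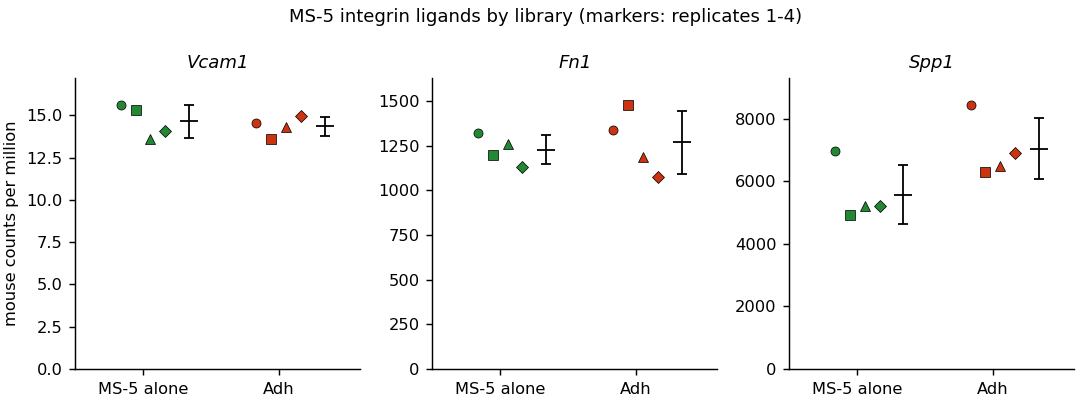
Mouse CPM (TMM scaled) of Vcam1, Fn1 and Spp1 in each library of MS-5 alone and of MS-5 under adherent REC-1 cells (Adh), with marker shapes for replicates 1 to 4 and a bar for the mean and SD (n = 4). Vcam1 and Fn1 overlap between the groups, and 3 of the 4 MS-5 libraries lie below all Adh libraries for Spp1.

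No further integrin subunit was called in REC-1. Of 26 human integrin subunits 10 were tested, and 0 were called in each of the 3 REC-1 comparisons, with a median log2 fold change of -0.02 between Adh and Susp, 0.00 between Susp and Sep and -0.27 between Adh and Sep, against 0.00 to -0.01 for all tested genes. DESeq2 called 0 subunits in each comparison, and 2 subunits had an unadjusted p under 0.05 between Adh and Susp, 2 between Susp and Sep and 0 between Adh and Sep. Over all genes the shares under 0.05 were 18%, 16.7% and 20.2%. Besides the members the tested subunits were ITGA3, ITGA7, ITGAE, ITGAV, ITGB4 and ITGB8.

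Of 30 genes that regulate integrin activation or link integrins to actin, 27 were tested. Of these, 1 was called, lower in Adh than in Susp, where 0.778% of all genes were called. RASGRP2, the exchange factor that loads RAP1 to activate integrins, was measured at 90.7, 127, 99.9 and 100.3 CPM in Susp and at 58.5, 70.9, 66.4 and 76.7 CPM in Adh. Its groups did not overlap, as for 11.4% of all genes. It fell by 0.62 on the log2 scale (SE 0.139, edgeR adjusted p = 0.0438). Without Susp replicate 2 the adjusted p of RASGRP2 was 0.0581, and the call was lost when any of Susp replicates 2 to 4 or any Adh replicate was left out, with adjusted p up to 0.159. In Sep RASGRP2 was 71.7, 105, 92.3 and 113 CPM, and Adh over Sep gave -0.49 (SE 0.139, edgeR adjusted p = 0.0638). The kindlins, which bind beta chain tails beside talin, were low: FERMT3, the blood cell form, was 1.70 to 2.39 CPM in the group means. FERMT1 stood at 3.59 to 5.56 CPM in Adh against 2.35 to 3.45 CPM in Susp (log2 fold change 0.75, SE 0.241, edgeR adjusted p = 0.133), and FERMT2 at 2.1 to 3.08 against 0.983 to 1.35 CPM (log2 fold change 1.20, SE 0.351, edgeR adjusted p = 0.108). The most abundant of this list per length were RAC2 at 133 to 176 RPKM, TLN1 (talin, which opens the integrin) at 62.7 to 76.2 RPKM and FLNA in Sep and Susp. LIMS1 took the place of FLNA in Adh with 66.7 RPKM, which rests on its length, since it was 12 in order with the union of all exons. The list had 0 calls between Susp and Sep and 0 between Adh and Sep, and DESeq2 called 0 and 1 (FERMT1). At an unadjusted p under 0.05 stood 5 and 8 of its genes, where 16.7% and 20.2% of all genes did. The median log2 fold change of the list between Adh and Susp was -0.08. Between Adh and Susp 8 of its 27 tested genes had an unadjusted p under 0.05, against 18% of all genes. DESeq2, which called more genes here than edgeR, called 2 of the list (FERMT2 and RASGRP2).

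Of 13 human genes for integrin ligands 9 were tested and 0 called by edgeR or DESeq2, with 3 at an unadjusted p under 0.05 between Adh and Susp, 1 between Susp and Sep and 3 between Adh and Sep. The shares of all genes under 0.05 were 18%, 16.7% and 20.2% in that order. The most abundant per length were SPP1 with 40.2 to 45.4 RPKM, JAM3, a junction protein, with 22.1 to 28.4 RPKM, and ICAM1. The place of SPP1 rests on its length, since with the union of all exons it came after ICAM1 and JAM3. JAM3 stood at 73.5 to 89.8 CPM in Sep and 96.1 to 112 CPM in Adh (log2 fold change 0.36, SE 0.0965, edgeR adjusted p = 0.0505). These groups did not overlap, as for 15.7% of all genes. ICAM3, a further LFA-1 ligand, was 11.1 to 12 RPKM in the group means. The median log2 fold change of the list was 0.03, 0.08 and 0.11 in the 3 comparisons.

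**Figure D4:**
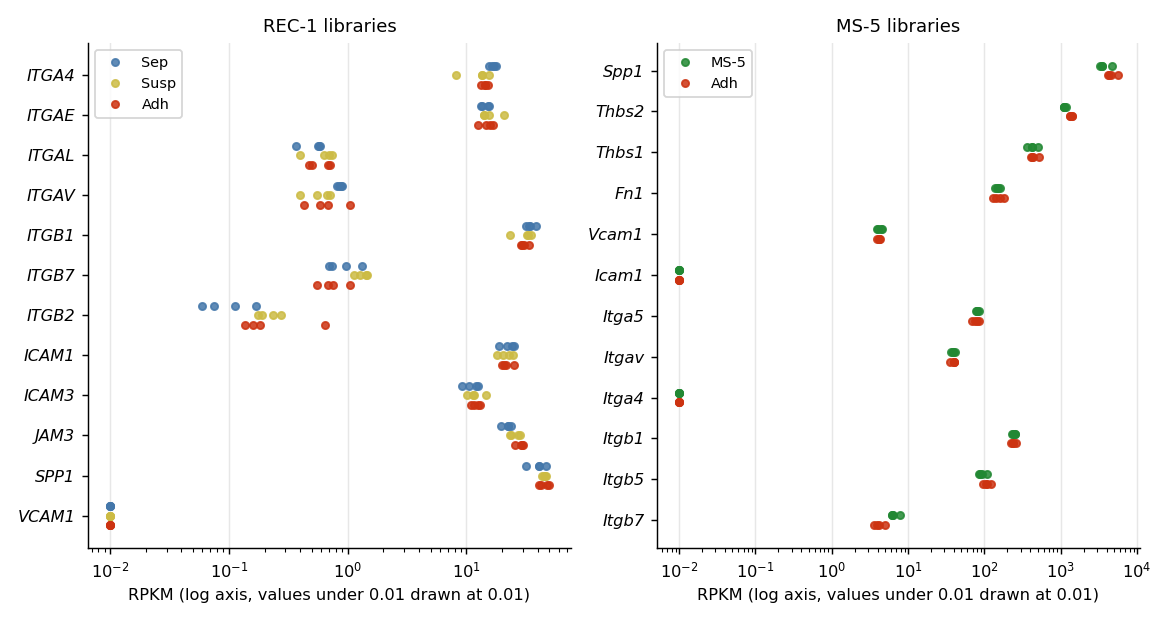
Level per length (RPKM, principal transcript, log axis) of integrin chains and ligands in each REC-1 library (left) and each MS-5 library (right), with values under 0.01 drawn at 0.01. In REC-1, ITGB1, ITGA4 and ITGAE stand above ITGB7, ITGAL and ITGB2, and in MS-5, Spp1 lies above the thrombospondins, Fn1 and Vcam1.

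MS-5 had its own integrins, led by Itgb1 at 241 RPKM alone and 239 RPKM in coculture, Itgb5 at 93.2 and 107 RPKM and Itga5, the fibronectin receptor chain, at 80.9 and 77.3 RPKM. Of 26 mouse subunits 15 were tested, and 1 was called, where 0.205% of all genes were. Itgb7 was 16.3, 20.9, 17.1 and 16.7 CPM in MS-5 alone and 9.48, 13.2, 11 and 10.5 CPM in coculture, with no overlap, as for 6.74% of all genes. It fell by 0.68 on the log2 scale (SE 0.122, edgeR adjusted p = 0.0147). The call on Itgb7 was lost without MS-5 replicate 2, 3 or 4 or Adh replicate 3, with adjusted p up to 0.0693. Zfp740, the neighbouring gene, was 152 CPM alone and 160.4 CPM in coculture, and the annotation gives mouse Itgb7 no exon overlap.

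The matrix ligands held 18 tested genes of 37, of which 0 were called by edgeR or DESeq2. An unadjusted p under 0.05 was found for 5 of them and for 11.3% of all genes. Thbs2 and Cyr61 passed the adjusted p, as 0.77% of all genes did, but not the fold minimum. Thbs2, thrombospondin 2, was 6511 to 6806 CPM alone and 7809.9 to 8331 CPM in coculture, a log2 difference of 0.29 (SE 0.0387, edgeR adjusted p = 0.0018). Cyr61, a matricellular protein bound by αv and β1 integrins, was 277 to 379.7 CPM alone and 207 to 259 CPM in coculture, a log2 difference of -0.55 (SE 0.0858, edgeR adjusted p = 0.00825). Cyr61 passed the fold minimum as well without MS-5 replicate 1 (-0.64, edgeR adjusted p = 0.000502) and without Adh replicate 4 (-0.615, edgeR adjusted p = 0.00322). Spp1, Thbs2 and Thbs1 were the most abundant of this list, Thbs2 with 1120 and 1370 RPKM and Thbs1 with 426 and 445 RPKM. Of 10 mouse ligands of the immunoglobulin family 5 were tested and 0 called by either tool. An unadjusted p under 0.05 was found for 1 of them, against 11.3% of all genes. Jam2 with 25.6 and 23.8 RPKM and F11r with 13.0 and 11.2 RPKM lay above Vcam1. The median log2 fold change was -0.02 for the mouse subunits, -0.14 for the immunoglobulin ligands and -0.01 for the matrix list, against 0.00 for all tested genes.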

How the data were processed

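Gene counts from 16 RNA-seq libraries entered, with 4 in each of Sep, Susp, Adh and MS-5 alone. The authors split the read pairs by species (Xenome), mapped them to GRCh38 or GRCm38 using STAR 2.5.1b and kept unique alignments. Counting per gene used featureCounts of Subread 1.5.2, and the study describes the counts as fragments. The deposited counts were neither normalized nor filtered, and the strand setting of the counting is not given in the sources used here. The other 20 columns of the tables hold samples outside these groups and were not used. Fragments of genes that are near copies of each other, within or between species, were lost or could be split by these steps.

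Counts were tested in R 4.3.3 with edgeR 4.0.16 (filterByExpr, TMM, quasi-likelihood test). The 12 REC-1 libraries entered 1 model and the 8 mouse libraries another, and a call took a Benjamini-Hochberg adjusted p up to 0.05 and a fold change from 1.5 upward. Intervals are at 95%, and a count of 0 was given a limit of 3 counts, for counting error only. This limit takes each count as a separate fragment. RPKM used the principal transcript of GENCODE, whose gene identifiers matched 98.1% of human and 99.31% of mouse genes of the files' older annotation. Samples were grouped by their labels. Alternatives were DESeq2 1.42.0, the replicate number as a term, other scaling and filters, thinned or species-corrected counts, no fold minimum, a model of the compared groups alone and each library left out. Exon-union lengths were added after seeing the data. No 2 libraries of a group agreed within sampling noise. On simulated counts of 12668 genes for Adh against Susp, the test recovered 197 of 200 altered genes and made 8 false calls. On 12066 genes for MS-5 it recovered 200 of 200 and made 3 false calls. Every altered gene was changed by clearly more than 1.5-fold. All came from above a level that ITGB7, ITGAL and ITGB2 did not reach. How well smaller changes or such low genes are recovered was therefore not measured.

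The members and gene lists were chosen with earlier results of these data known. Named genes are the members and their counterparts in the other species, list genes that were called, the 3 most abundant of each list per length, and the 3 genes most like ITGA4 and Vcam1 with a mean of at least 10 CPM. The genes most like ICAM1 are not reported here. FERMT1, FERMT2, FERMT3, JAM3, ICAM3, Cyr61, overlapping or neighbouring genes and genes listed at 0 were named after their values were seen.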

Additional observations from a re-analysis of the deposited data

Results flagged for a closer look

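Within groups of 4 libraries, 6 of 64 groups of named genes, among them 3 of 24 groups of members, held a library whose gap to the nearest other, as a share of the range, was past Dixon's 95% limit. Chance flags about 1 in 20 groups. ITGB2 stood at 1.80 CPM in Adh replicate 4, above 0.385 to 0.514 CPM in the other Adh libraries. ITGAL stood at 1.89 CPM in Sep replicate 1, below the other Sep libraries at 2.87 to 3.03 CPM. Spp1 stood at 6969 CPM in MS-5 replicate 1, above 4939 to 5208 CPM in the others. Mouse Itgb7 stood at 20.9 CPM in MS-5 replicate 2, against 16.3 to 17.1 CPM in the others. LIMS1 stood at 101.3 CPM in Adh replicate 2, against 110.8 to 111 CPM in the others. Jam2 stood at 119 CPM in Adh replicate 1, against 97.4 to 100.1 CPM in the others. The low ITGA4 and ITGB1 values of Susp replicate 2 did not reach this limit, with gaps of 0.729 and 0.78 of the range.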

How the results depend on the processing

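Of 303 values of the tested members under the alternatives, 284 kept their direction and 19 turned it, and 0 passed or lost the threshold. The number of genes called was 281 between Adh and Susp with the replicate block, 282 with DESeq2 and 341 without the low-count filter, 175, 173 and 217 between Susp and Sep, 527 with DESeq2 and 503 without the filter between Adh and Sep, and 45 with the replicate block, 45 without the filter and 94 with no fold minimum in MS-5. With 1 library left out these counts ranged from 51 to 92, from 64 to 135, from 143 to 490 and from 8 to 36, in that order. Members called stayed at 0 throughout. Directions turned only for log2 fold changes near 0: between Adh and Susp, ITGB1 was 0.00581 with the replicate block, 0.00212 with DESeq2, 0.00418 in the model of these groups alone and -0.103 to 0.0563 with 1 library left out, ITGAL was 0.0729 with thinned counts and -0.184 to 0.0675 with 1 left out, ICAM1 was -0.0244 with thinned counts and -0.0435 to 0.0976, and ITGAE -0.162 to 0.0542. Between Adh and Sep, ITGAE was -0.0179 with thinned counts and ICAM1 -0.115 to 0.007, between Susp and Sep F11R was -0.00976 to 0.113, and in MS-5 Vcam1 was -0.0573 to 0.00897 and Fn1 -0.0339 to 0.119. ITGAE and F11R are not members, so the 19 turned values do not include theirs.

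Libraries of the same replicate number share a number in their sample codes, and the study describes Susp and Adh as fractions within its cocultures. Such libraries deviated together for some numbers only. The r ran from -0.0205 to 0.312 for Adh and Susp and from 0.0162 to 0.321 for Susp and Sep. It ran from -0.00218 to 0.308 for Adh and Sep and from 0.0333 to 0.286 for MS-5. These values neither show nor exclude pairing by number, and the main p-values leave it out. With the replicate block the log2 fold change of Spp1 was 0.34 with an edgeR adjusted p of 4.93e-06, FERMT2 (1.23) was called between Adh and Susp and FERMT1 (0.90) between Adh and Sep, and both were also called with DESeq2. Without the low-count filter the adjusted p was 4.17e-14 for Spp1 and 0.0329 for ITGA4 between Susp and Sep, both under 1.5-fold. The cause of these differences was not tested. With thinned counts RASGRP2 had an adjusted p of 0.0528. Depth limits ITGB2, ITGAL and ITGB7, which had few counts per library.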
